A study of Mus musculus with 24 samples.

Results

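The 36 genes described here are an astrocyte set. They encode enzymes, transporters, receptors and secreted proteins that mark mature astrocytes, and they were taken by symbol from the count tables, where all 36 were found among 48321 gene symbols. The hippocampi of adult C57BL/6 mice were the tissue, and RNA was taken from the cells sorted for GFP. All animals carried a tamoxifen-dependent Cre under control of Hes5 (Hes5::CreERT2) and the Cre reporter Rosa26R-CAG::GFP, so both genotypes express Cre and both received tamoxifen. Wild-type (WT) mice were Notch2 wt/wt, and the conditional knockout (CKO) mice were Notch2 flox/flox. Cells were collected 1 day after a 5-day course of tamoxifen. There were 3 pools of each genotype, each from several animals, with 2 libraries per pool and 2 lanes per library. The labels tag WT pools 1 to 3 as 20K, 12K and 2K and CKO pools 1 to 3 as 19K, 4K and 9K, without saying what the tag counts. Hes5 is a Notch target expressed by neural stem cells, and the sort collects every cell in which its promoter was active and the reporter recombined, not stem cells alone.

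Astrocytes clear glutamate and potassium, store glycogen, supply metabolites to neurons and release lipoproteins and synapse-organising proteins. Radial glia-like stem cells of the adult dentate gyrus belong to the astroglial lineage and share many of these transcripts, so the set does not separate stem cells from astrocytes. In pooled sorted cells, fewer cells of a type and less RNA per cell cannot be told apart.

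Each pool had between 40366579 and 53984963 reads assigned to genes. Every one of the 36 genes passed the filter on low counts, and the lowest count of any of them in a pool was 44 reads (Chrdl1 in WT pool 3). Levels are given as CPM, reads of a gene per 1000000 reads in the genes that passed the filter, after TMM adjustment of the library size. Notch2, the targeted gene, stood at 99.3, 146 and 303 CPM in WT pools 1 to 3. In CKO pools 1 to 3 it stood at 65.3, 116 and 121 CPM, so the genotypes overlapped (log2 fold change -0.86, SE 0.45, edgeR adjusted p = 0.790). The retained exons of the floxed allele are counted too, so the gene count checks the labels only in part. The pools also held reads of genes that mark other cell types. The summed level of 8 oligodendrocyte markers was 2381 to 6401 CPM and that of 6 oligodendrocyte precursor markers 1028 to 3059 CPM, while 6 ependymal and choroid plexus markers came to 0.198 to 2.89 CPM, with Foxj1, Tmem212, Ccdc153, Ttr and Folr1 at 0 reads in at least 1 pool. Whether pools shared animals is not stated in the labels, so a p-value here reflects pool-to-pool spread only, which may in part be technical.

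The astrocyte genes were abundant in both genotypes. Together they held 9.91%, 10.4% and 8.41% of the reads in genes in WT pools 1, 2 and 3, and 8.73%, 7.88% and 11.1% in CKO pools 1, 2 and 3, so the shares of the genotypes overlapped. Without the 3 most abundant, Apoe, Cst3 and Aldoc, the summed level was 37415, 51278 and 49257 CPM in WT pools 1 to 3. In CKO pools 1 to 3 it was 45693, 40387 and 60774 CPM, so WT pool 1 was then the lowest. Compared per length, as CPM per kb of annotated exon, 14 of the 36 were among the 100 highest of 38518 genes with at least 300 bases of exon, and 26 were among the 500 highest. Apoe, the main lipid carrier of the brain, was ranked 2 with a mean level of 11673 CPM per kb, and Cst3, the secreted inhibitor cystatin C, was ranked 3 with 9328 CPM per kb. Next among the astrocyte genes came Aldoc, the aldolase isoform of astrocytes, at 3171, Clu, the extracellular chaperone clusterin, at 2119 and Sparcl1, the synapse-promoting matrix protein hevin, at 1757 CPM per kb. At the other end were the BMP antagonist Chrdl1 at 3.19, the formin-related Wnt regulator Daam2 at 12.4 and the engulfment receptor Megf10 at 12.7 CPM per kb. The ranges over pools of Apoe and Cst3 overlapped, and so did those of Daam2 and Megf10. Within each pool Apoe stood above Cst3. It was at 15502 against 14411 CPM per kb in WT pool 1, the highest pool of both. In CKO pool 2, the lowest of both, it was at 8407 against 6410 CPM per kb. These levels rest on union exon lengths, which count exons of minor transcripts and so lower the level of genes with many transcripts. With the longest transcript as the length, Clu was ranked 8 and Aldoc 11, so their order turned.

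**Figure D1:**
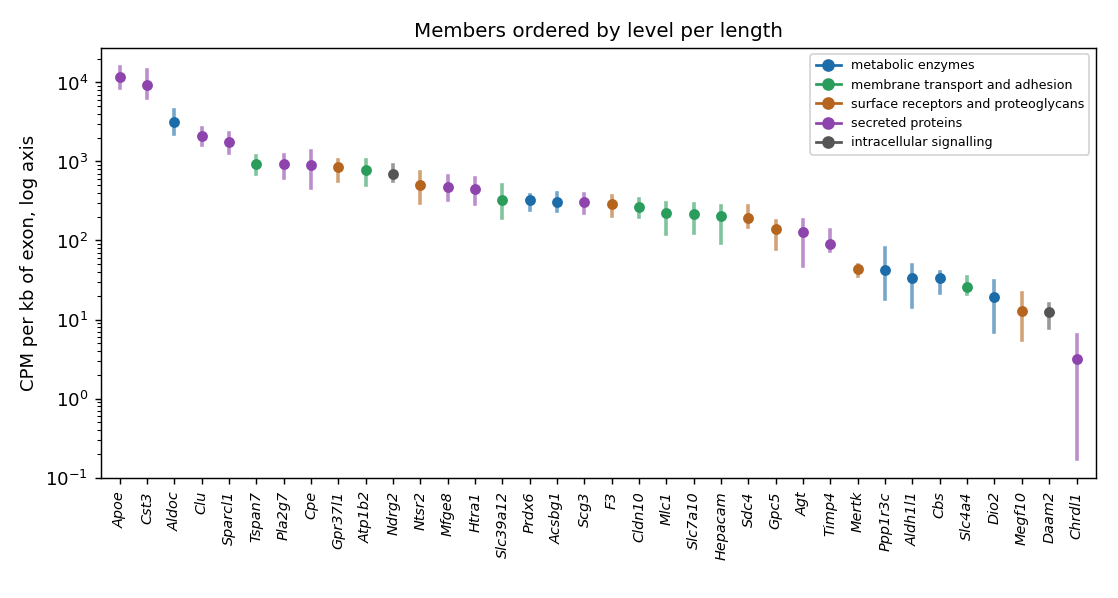
Level of each astrocyte gene per kb of annotated exon (log axis), ordered from the highest; points are means over the 6 pools and bars run from the lowest to the highest pool. Apoe and Cst3 stand highest at 11673 and 9328 CPM per kb, and Chrdl1 is lowest at 3.19 CPM per kb.

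Promoter windows of RefSeq (GRCm38.p6, 250 bases before to 50 after a start site) matched 29 of the 36 genes, with 37 windows in all. Their median GC content was 57.7%, against 52.7% over all 32851 windows. Because Notch signals act through Rbpj, the core TGGGAA of its binding site was searched on both strands. It occurred in 13 of the 37 windows (35.1%) and in 25.6% of all windows. The STAT-type motif TTCNNNGAA occurred in 5 of the 37 (13.5%) and in 8.30% of all, and the full nuclear factor I palindrome in 0 of the 37 and in 0.0365% of all. Such matches are letters in a window and not evidence of binding. Of the windows printed here, the 250 bases before the start, 5′ to 3′ on the gene's strand, are shown where no annotated exon lies in them, with the Rbpj core in capitals. Apoe is shown as the most abundant of the genes (chr7:19699189-19699438, minus strand), and Slc4a4 as the single gene whose genotypes did not overlap (chr5:89027716-89027965, plus strand, the more 3′ of its listed starts). Mfge8 (chr7:79149061-79149310, minus strand) and Acsbg1 (chr9:54661886-54662135, minus strand) are shown because they hold the core, with its first base in the window 83 and 160 bases before the start.
Apoe: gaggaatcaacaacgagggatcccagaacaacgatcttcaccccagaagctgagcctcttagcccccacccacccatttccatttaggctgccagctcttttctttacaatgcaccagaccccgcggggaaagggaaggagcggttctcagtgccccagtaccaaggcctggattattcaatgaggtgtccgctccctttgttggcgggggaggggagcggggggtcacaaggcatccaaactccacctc
Slc4a4: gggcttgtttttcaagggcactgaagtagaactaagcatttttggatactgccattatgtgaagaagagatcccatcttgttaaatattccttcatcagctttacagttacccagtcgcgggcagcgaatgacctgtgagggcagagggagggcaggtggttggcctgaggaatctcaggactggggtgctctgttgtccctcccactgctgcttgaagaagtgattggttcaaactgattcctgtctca
Mfge8: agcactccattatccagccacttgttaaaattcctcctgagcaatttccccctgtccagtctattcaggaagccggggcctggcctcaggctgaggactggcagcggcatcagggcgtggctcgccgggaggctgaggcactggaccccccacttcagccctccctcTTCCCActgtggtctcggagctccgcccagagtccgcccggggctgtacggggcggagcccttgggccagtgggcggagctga
Acsbg1: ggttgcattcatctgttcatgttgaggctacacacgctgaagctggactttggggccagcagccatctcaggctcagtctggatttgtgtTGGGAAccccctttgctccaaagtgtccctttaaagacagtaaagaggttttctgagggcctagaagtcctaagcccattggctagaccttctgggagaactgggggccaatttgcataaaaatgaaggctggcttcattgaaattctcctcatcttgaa
Mfge8 carries the core on the reverse strand, as TTCCCA, and Acsbg1 on the forward strand, while the printed stretches of Apoe and Slc4a4 have none. Apoe and Slc4a4 each have another listed start whose window does hold the core.

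The comparison of CKO with WT asked which astrocyte genes respond when Notch2 is deleted in Hes5-expressing cells. None of the 36 passed an adjusted p under 0.05 in edgeR's quasi-likelihood test (smallest adjusted p = 0.790), as was the case for 0% of the 21477 genes tested. At an unadjusted p under 0.05 there were 0 of the 36, where 5.91% of all genes reached it (3.01% higher and 2.9% lower in CKO), and the smallest unadjusted p was 0.0890, for Cpe. DESeq2 called 0 of the 36, with 0 at an unadjusted p under 0.05 as well, against 0.596% of all genes called at an adjusted p under 0.05. Of the 36, 23 had a log2 fold change above 0, where 47.2% of all genes did, and the median was 0.13 against -0.06 over all genes tested. The genotypes did not overlap for 1 of the 36 (2.78%), Slc4a4, higher in CKO, against 15.8% of all genes (7.67% higher and 8.17% lower in CKO). For 33 of the 36 the log2 fold change lay within 0.5 of 0, as it did for 48.5% of all genes. All genes tested include many of low level, and only 3997 of them, with 35 of the 36, had a mean of at least 50 CPM. Of those 3997 genes, 42.2% were above 0, the median was -0.10 and 21.0% did not overlap. The share within 0.5 of 0 was not computed for them.

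The number of genes above 0 moved with single pools. Without WT pool 1, 18 of the 36 genes were above 0 and the median was -0.00, and without CKO pool 3 the values were 17 and -0.03. CKO pool 3 had the highest level of 21 of the 36 genes, where 12.6% of all genes tested were highest in it. WT pool 1 had the lowest level of 18 (22.1% of all genes) and the highest level of 5, namely Apoe, Cst3, Aldoc, Cldn10 and Timp4 (25% of all genes). CKO pool 2 was lowest for 12 (14.3% of all genes) and highest for 0 (16.1%). WT pools 2 and 3 and CKO pool 1 were highest for 4, 3 and 3 (10.5%, 24.5% and 11.2% of all genes) and lowest for 0, 5 and 1 (9.61%, 29.6% and 12.1%), and CKO pool 3 was lowest for 0 (12.4%). CKO pool 3 also had the highest summed level of 8 microglial markers, 695 CPM against 248 to 354 CPM in the other pools, with all 8 detected in every pool. WT pool 1 had the highest summed level of 8 excitatory neuron markers, 952 CPM against 293 to 412 CPM elsewhere, and of 5 red blood cell markers, 392 CPM against 14.3 to 118 CPM. The share of reads outside genes was 35.3% in CKO pool 2 and 16% in WT pool 1, with the remaining pools at 20.3% to 25.8%, and CKO pool 2 had reads in 38187 genes against 26502 to 33937 in the others. The part of these marker levels and of these read shares in the levels of the astrocyte genes was not tested. Apoe, Cst3 and Mertk are also expressed by microglia, and Cpe, Scg3 and Tspan7 by neurons.

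**Figure D2:**
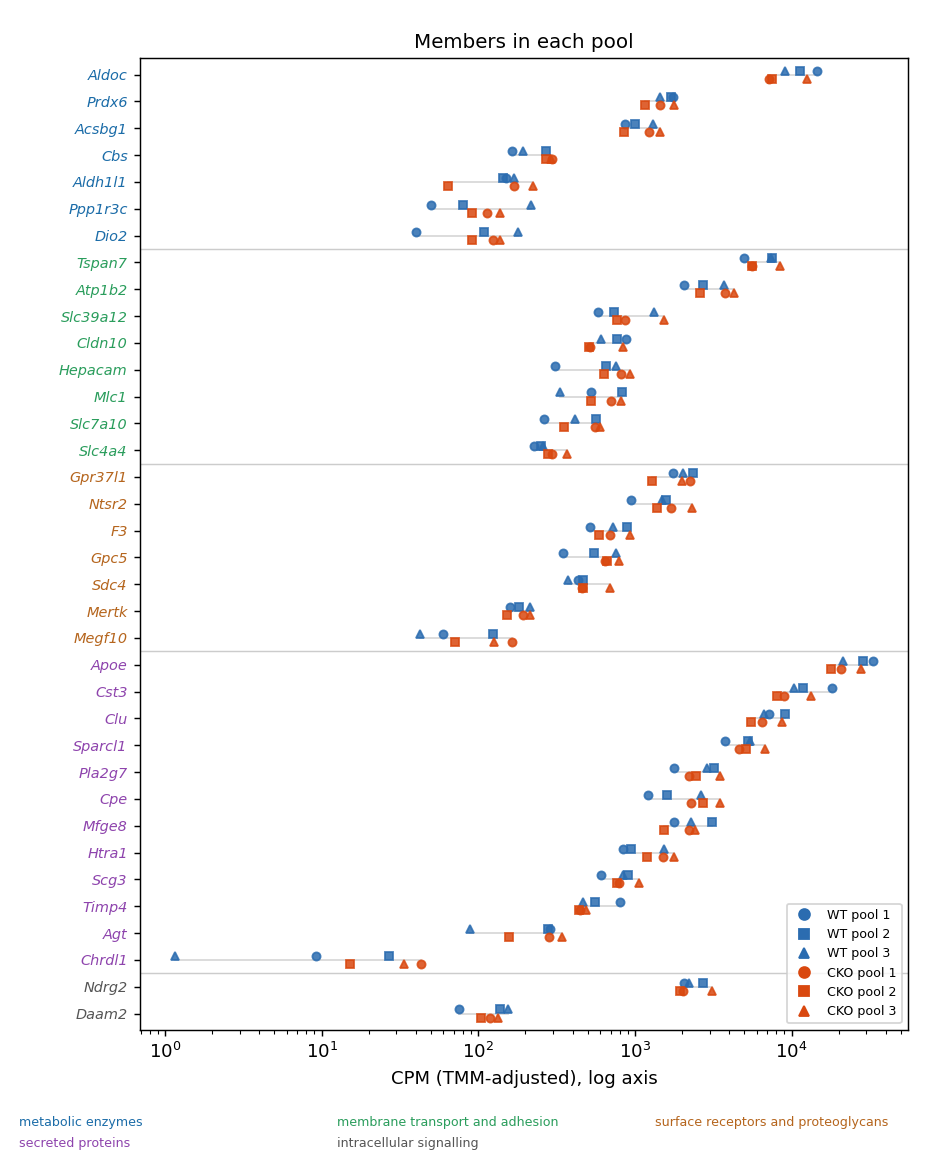
Level of each astrocyte gene in each pool (CPM after TMM adjustment, log axis), grouped by role and coloured by genotype, with the grey line from the lowest to the highest pool. Genotypes overlap for all genes except Slc4a4, and CKO pool 3 (orange triangles) is highest for 21 of the 36 genes.

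The coefficient of variation of a gene's CPM over the 6 pools had a median of 25.2% for the 36 and 48.7% for all genes tested. Among genes with a mean of at least 50 CPM, which 35 of the 36 and 3997 genes in all reached, the medians were 24.7% and 29.1%. Mertk, a receptor kinase that mediates engulfment of synapses and debris, varied least at 14.1%, and Chrdl1 most at 73.3%. For the other 34 genes the highest pool was 1.55 to 4.51 times the lowest, with the widest ranges in Dio2, Ppp1r3c, Agt and Megf10.

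Of the 7 metabolic enzymes, 3 had a log2 fold change above 0 and 4 below, with a median of -0.02. Aldoc stood at 14474, 11306 and 9040 CPM in the WT pools and at 7179, 7469 and 12608 CPM in the CKO pools. The genotypes overlapped, with CKO pool 3 above WT pools 2 and 3 (log2 fold change -0.35, SE 0.29, edgeR adjusted p = 0.815). Without WT pool 1 the value was -0.15, and without CKO pool 3 it was -0.62. An exact permutation test over pools, which cannot go below 0.1 here, gave p = 0.3. Cbs, which makes cystathionine from homocysteine and also yields hydrogen sulphide, stood at 164, 270 and 195 CPM in the WT pools against 298, 269 and 292 CPM in CKO pools. The lowest CKO pool and the highest WT pool of Cbs lay within 1 CPM of each other (log2 fold change 0.45, SE 0.24, edgeR adjusted p = 0.790). Aldh1l1, the folate enzyme used as a general astrocyte marker, was at 151, 144 and 169 CPM in the WT pools and 169, 64.4 and 223 CPM in the CKO pools. Its WT pools were close together and its CKO pools lay on both sides of them (log2 fold change -0.02, SE 0.42). Prdx6, a peroxiredoxin with phospholipase activity, ranged from 1155 to 1787 CPM, and Acsbg1, which activates long-chain fatty acids, from 852 to 1446 CPM. Their log2 fold changes were -0.16 (SE 0.22) and 0.15 (SE 0.26). Prdx6 belongs to a family with close copies, which can share reads. The least even enzymes were Dio2, which converts thyroxine to active thyroid hormone, and Ppp1r3c, which targets a phosphatase to glycogen. Dio2 was at 39.9, 108 and 180 CPM in WT, and the CKO pools had 124, 91.2 and 138 CPM, and Ppp1r3c at 50.04, 80.5 and 218 against 114, 91.7 and 137 CPM. In both, the WT pools held the lowest and the highest level, with WT pool 1 lowest and WT pool 3 highest. Without WT pool 3 their log2 fold changes were 0.67 and 0.80, and without WT pool 1 -0.28 and -0.38.

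Among the 8 genes of membrane transport and adhesion, 6 were above 0 and 2 below, with a median log2 fold change of 0.28. Slc4a4 (chromosome 5, 88886818 to 89239653, plus strand, GRCm38), the sodium bicarbonate cotransporter of astrocytes, stood at 228, 251 and 259 CPM in the WT pools against 294, 280 and 370 CPM in CKO pools. Each CKO pool lay above each WT pool, with mean levels of 246 ± 16.5 and 315 ± 48.4 CPM (SD, n = 3 each). On the log2 scale the difference was 0.35 (SE 0.20), which did not pass in edgeR (unadjusted p = 0.117, adjusted p = 0.793). The exact permutation test gave p = 0.1, its lower limit. It was 0.27 in library 1 alone and 0.39 in library 2 alone, and 0.26 to 0.43 with any 1 pool left out. With CPM scaled to the plain sum of reads in genes, Cbs and the proteoglycan gene Sdc4 did not overlap either, which made 3 of 36. The share of all genes without overlap was not computed under that scaling. Under the TMM adjustment it was 15.8%.

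Mlc1 and Hepacam encode the membrane partners MLC1 and GlialCAM of astrocyte endfeet. Hepacam was at 310, 654 and 762 CPM in the WT pools and 818, 634 and 926 CPM in the CKO pools, with WT pool 1 far below the rest (log2 fold change 0.46, SE 0.35). Without that pool the value was 0.18. Mlc1 was at 527, 824 and 334 CPM in WT, and the CKO pools had 701, 523 and 821 CPM, with the highest and the lowest level both in WT. Its log2 fold change was 0.28 (SE 0.35) with all pools, 0.01 without WT pool 3 and 0.73 without WT pool 2. Atp1b2, a beta subunit of the sodium pump, ranged from 2046 to 4322 CPM (log2 fold change 0.33, SE 0.29). The difference of Atp1b2 was 0.74 in library 1 and 0.02 in library 2. Slc7a10, which carries glycine and serine, and Slc39a12, a zinc transporter, differed by 0.28 (SE 0.34) and 0.26 (SE 0.39) on the log2 scale, and that of Slc39a12 was 0.63 in library 1 and -0.23 in library 2. The value of Slc7a10 was 0.05 without WT pool 1 and 0.62 without WT pool 2. Tspan7, a tetraspanin, stood at 6595 ± 1416 CPM in the WT pools, with 6527 ± 1622 CPM in CKO pools. Cldn10, a claudin, stood at 752 ± 134 and 624 ± 190 CPM (SD, n = 3 each). The log2 fold change of Cldn10 was -0.27 (SE 0.27), with -0.46 in library 1 and 0.01 in library 2.

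**Figure D3:**
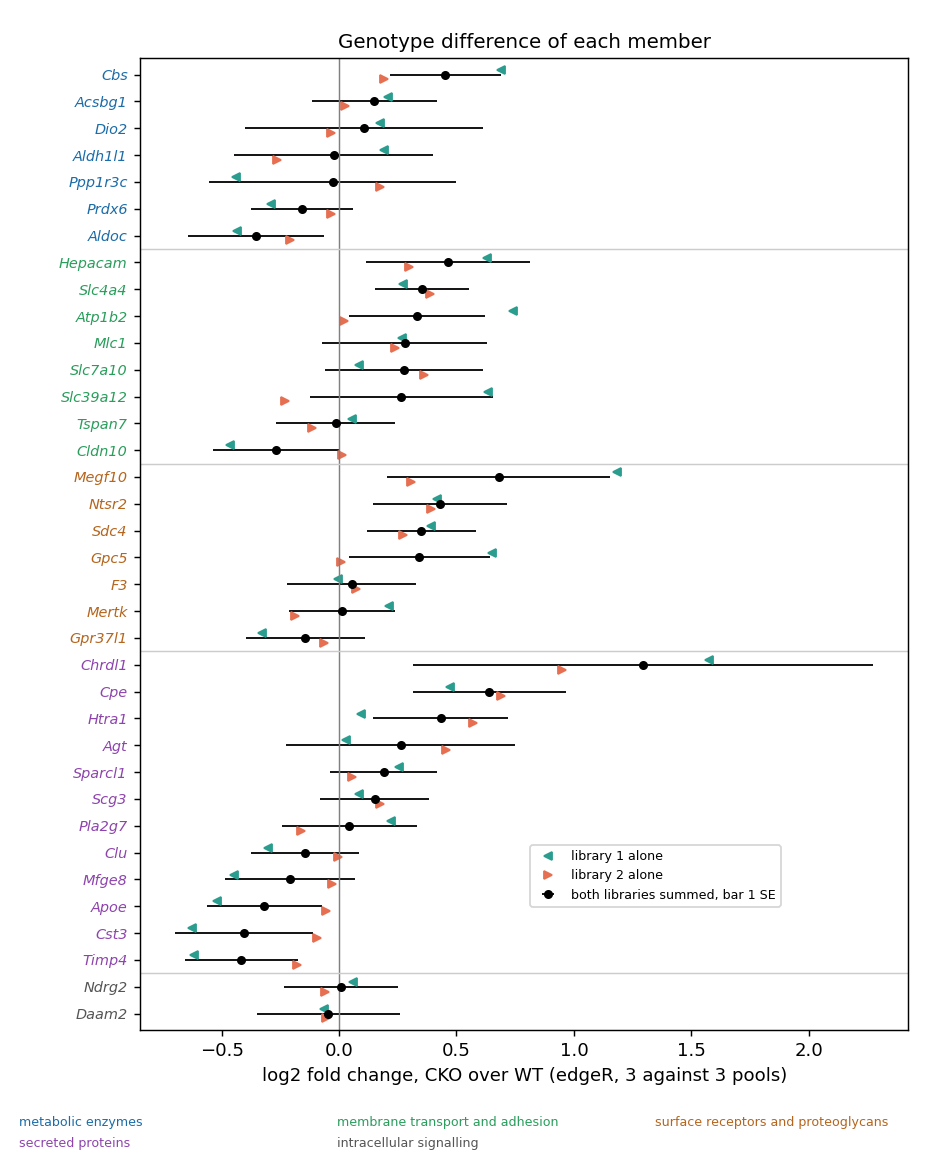
Log2 fold change of each astrocyte gene, CKO over WT, with 1 SE from the edgeR fit on 3 against 3 pools (black), and the value from library 1 alone and library 2 alone (triangles), grouped by role. The values of 33 of the 36 genes lie within 0.5 of 0, and Chrdl1 has the largest value at 1.29.

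Receptors and proteoglycans of the cell surface were above 0 in 6 of 7 genes, with a median log2 fold change of 0.34. Ntsr2, the neurotensin receptor of astrocytes, was at 943, 1584 and 1491 CPM in the WT pools against 1702, 1385 and 2323 CPM in CKO pools. CKO pool 2 lay below WT pools 2 and 3, and the log2 fold change was 0.43 (SE 0.28, edgeR adjusted p = 0.8004), with 0.42 in library 1 and 0.39 in library 2. Gpr37l1, an orphan receptor, ranged from 1292 to 2357 CPM (-0.14, SE 0.25 on the log2 scale). Megf10 was at 59.3, 124 and 42.7 CPM in the WT pools and 165, 71.4 and 126 CPM in the CKO pools. WT pool 2 was close to CKO pool 3, and the log2 fold change of Megf10 was 0.68 (SE 0.48, edgeR adjusted p = 0.8004), with 1.31 when WT pool 2 was left out and 0.40 without WT pool 3. Library 1 alone gave 1.18 for Megf10 and library 2 alone 0.31. The other engulfment receptor, Mertk, stood at 186 ± 27.9 CPM in the WT pools, with 187 ± 30.9 CPM in CKO pools (SD, n = 3 each, log2 fold change 0.01, SE 0.23). It was at 0.21 in library 1 and -0.19 in library 2. F3, tissue factor, which starts coagulation, stood at 711 ± 187 and 739 ± 175 CPM. The heparan sulphate proteoglycan genes Sdc4 and Gpc5 differed by 0.35 (SE 0.23) and 0.34 (SE 0.30) on the log2 scale. Sdc4 was high in CKO pool 3 alone, at 698 CPM against 375 to 467 CPM in the other pools, and its value was 0.16 without that pool. Gpc5 was low in WT pool 1 at 346 CPM, with 549 to 794 CPM elsewhere, and its value was 0.11 without that pool. Library 1 alone gave 0.65 for Gpc5 and library 2 alone 0.0088.

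Of the 12 secreted proteins, 7 were above 0 and 5 below, with a median log2 fold change of 0.10. The most abundant of them lay below 0. Apoe (chromosome 7, 19696109 to 19699188, minus strand, GRCm38) was at 33144, 28626 and 21322 CPM in WT, and the CKO pools had 20839, 17974 and 27833 CPM. WT pool 3 lay between CKO pools 1 and 3, so the genotypes overlapped. The mean levels were 27698 ± 5965 and 22215 ± 5072 CPM (SD, n = 3 each, log2 fold change -0.32, SE 0.24, edgeR adjusted p = 0.811, exact permutation p = 0.2). Cst3 was at 18244, 11792 and 10319 CPM in the WT pools against 8991, 8115 and 13394 CPM in CKO pools. WT pool 1 stood above every other pool, and its value was -0.40 (SE 0.29, adjusted p = 0.803 in edgeR), and -0.11 without that pool. Clu ranged from 5550 to 9091 CPM, with a log2 fold change of -0.14 (SE 0.23) that was 0.05 without WT pool 2. Mfge8, which bridges dying cells to phagocytes, ranged from 1532 to 3105 CPM (-0.21, SE 0.28), and its value was 0.08 without WT pool 2. Timp4, an inhibitor of metalloproteinases (chromosome 6, 115241892 to 115252205, minus strand, overlapped by Syn2 and Gm17482 on the opposite strand), was at 798, 560 and 469 CPM in the WT pools and 445, 437 and 488 CPM in the CKO pools. WT pool 3 and CKO pool 3 crossed, and the log2 fold change was -0.42 (SE 0.24, edgeR adjusted p = 0.794, unadjusted p = 0.125). It was -0.16 without WT pool 1.

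Cpe, the carboxypeptidase that trims prohormones, had the smallest unadjusted p of the 36. It stood at 1210, 1609 and 2657 CPM in WT, and the CKO pools had 2287, 2733 and 3515 CPM. WT pool 3 lay above CKO pool 1, and the difference was 0.64 on the log2 scale (SE 0.33, adjusted p = 0.790 in edgeR, p = 0.2 in the exact permutation test). Within libraries 1 and 2 it was 0.47 and 0.69, while it was 1.01 without WT pool 3, 0.43 without WT pool 1 and 0.49 without CKO pool 3. Chrdl1 (chromosome X, 143285674 to 143394262, minus strand, GRCm38) had the largest fold change at 1.29 (SE 0.98, edgeR adjusted p = 0.806). Its levels were 9.16, 27.1 and 1.17 CPM in the WT pools, with 43.2, 15.3 and 33.4 CPM in CKO pools. WT pool 3 had 15 and 29 reads in its libraries, while the libraries of WT pool 2 had 386 and 764 reads, and WT pool 2 lay above CKO pool 2. Without WT pool 2 the log2 fold change of Chrdl1 was 2.65, and without WT pool 3 it was 0.76.

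Agt, angiotensinogen, the precursor of angiotensin that brain astrocytes make, was at 287, 280 and 89.1 CPM in the WT pools against 285, 158 and 345 CPM in CKO pools. WT pool 3 was the lowest, and the log2 fold change of 0.26 (SE 0.49) was -0.11 without it. Sparcl1 stood at 4820 ± 902 and 5501 ± 1099 CPM, and the secretory granule protein gene Scg3 at 789 ± 156 and 876 ± 161 CPM (SD, n = 3 each). Htra1, a secreted serine protease, stood at 1107 ± 378 and 1495 ± 299 CPM, with a log2 fold change of 0.43 (SE 0.29) that was 0.09 in library 1 and 0.57 in library 2. Htra1 overlaps Fgfr2 on the opposite strand in the annotation, and the library kit does not mark strand. Pla2g7, a secreted phospholipase that inactivates platelet-activating factor, stood at 2628 ± 740 and 2709 ± 683 CPM. Of the intracellular signalling genes, Ndrg2, a differentiation-related protein of astrocytes, stood at 2343 ± 346 and 2358 ± 652 CPM (log2 fold change 0.01, SE 0.24), and Daam2 at 123 ± 41.8 and 119 ± 15.1 CPM (-0.05, SE 0.31).

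The repeat libraries of a pool measured some astrocyte genes at different levels. With pool as a block, edgeR called 0 of the 36 between library 2 and library 1 (smallest adjusted p = 0.209, 0% of 23745 genes called), and DESeq2 called 3, Aldoc, Cst3 and Hepacam, where it called 10.5% of all genes. At an unadjusted p under 0.05 in edgeR there were 12 of the 36 against 11.9% of all genes. Of these, 7 were higher in library 1 (5.37% of all genes) and 5 in library 2 (6.57%).

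Aldoc, Apoe, Cst3, Cldn10, Clu, Prdx6 and Scg3 were higher in library 1 in all 6 pools. These are 7 of the 36, where 7.14% of all genes did the same. Hepacam, Gpr37l1 and Daam2 were higher in library 2 in all 6 pools, which are 3 of the 36 against 4.69% of all genes. Aldoc had 18883, 15400 and 12037 CPM in library 1 of the WT pools and 9950, 6609 and 7799 CPM in library 2. In the CKO pools it had 8029, 8949 and 16623 CPM in library 1 and 6108, 6133 and 9016 CPM in library 2. The log2 difference of Aldoc between libraries was -0.77 (SE 0.12, edgeR adjusted p = 0.209). For Apoe it was -0.55 (SE 0.13), for Cst3 -0.65 (SE 0.16) and for Hepacam 0.80 (SE 0.18). The longest annotated transcript had a median of 2128 bases in the 7 genes higher in library 1, 3347 bases in the 3 genes higher in library 2 and 2741 bases in the 36. Across the 36 genes, Spearman's rho between transcript length and the library difference was 0.41, and across 20535 genes it was 0.32, as a description over genes that share libraries. Between transcript length and the genotype difference rho was 0.26 across the 36 and 0.25 across all these genes.

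In library 1 alone 24 of the 36 genes were above 0 and in library 2 alone 20, and 26 of the 36 had the same sign in both. The genotype difference was -0.52 in library 1 and -0.05 in library 2 for Apoe, -0.62 and -0.09 for Cst3, and -0.44 and -0.21 for Aldoc. WT pool 1 held the widest gap for Cst3, with 26443 CPM in library 1 and 10451 CPM in library 2. It also held that for Apoe, with 44582 and 21724 CPM. The part of the libraries in these genotype differences was not tested.

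**Figure D4:**
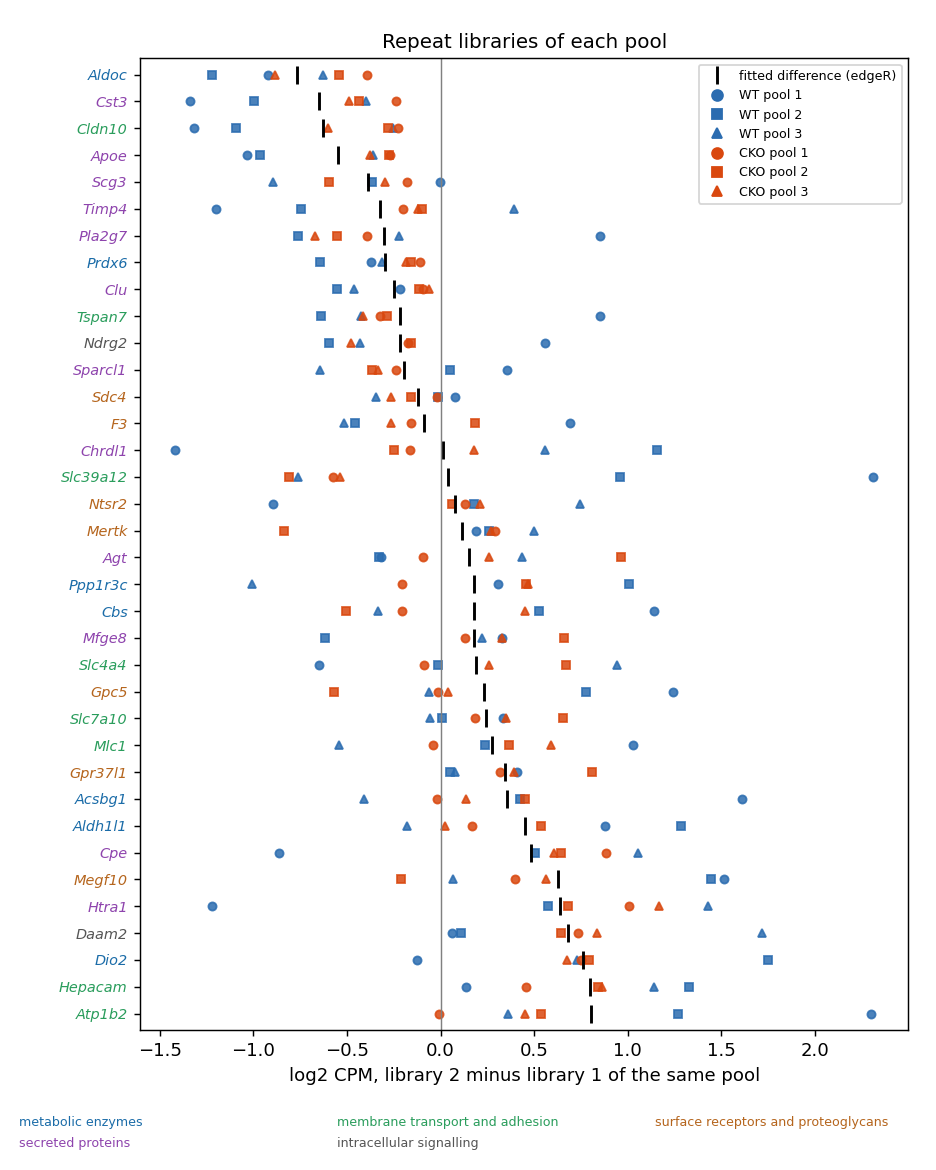
Difference in log2 CPM between library 2 and library 1 of the same pool for each astrocyte gene, ordered by the fitted difference (black bars), with 1 point per pool. The 7 genes left of 0 in every pool are Aldoc, Cst3, Cldn10, Apoe, Scg3 (close to 0 in WT pool 1), Prdx6 and Clu, and the 3 genes right of 0 in every pool are Gpr37l1, Daam2 and Hepacam.

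The lists that follow were chosen with earlier results of these data known. Their counts, set beside the shares of all genes, are descriptions and not tests. Further astrocyte genes, taken from a separate list of 30, were above 0 in 23 cases (47.2% of all genes) with a median log2 fold change of 0.27. None passed in edgeR (smallest adjusted p = 0.790), with 1 gene each way at an unadjusted p under 0.05, where 3.01% of all genes reached it upwards and 2.9% downwards. The potassium channel gene Kcnj10 stood at 108 ± 27.8 CPM in the WT pools, with 191 ± 40.9 CPM in CKO pools, and the calcium-binding protein gene S100b at 262 ± 34.2 and 187 ± 15.7 CPM (SD, n = 3 each). Genotypes did not overlap for 5 of the 30, Kcnj10, Slc6a11, Slc15a2 and Slc14a1 higher and S100b lower in CKO, against 15.8% of all genes. Of 16 genes of reactive astrocytes 15 were tested, 10 were above 0 and 0 passed in edgeR (smallest adjusted p = 0.790), with 2 at an unadjusted p under 0.05, both upwards (3.01% of all genes), the protease inhibitor gene Serpina3n and the chemokine gene Cxcl10. These were also the 2 genes of the list without overlap (15.8% of all genes). DESeq2 called Serpina3n alone (adjusted p = 0.00599, 0.596% of all genes called). Serpina3n was at 90.7, 103 and 139 CPM in the WT pools against 263, 291 and 256 CPM in the CKO pools, without overlap (log2 fold change 1.28, SE 0.23). Cxcl10 was at 0.0593, 0.897 and 0.0795 CPM in the WT pools, of which pools 1 and 3 were near the level of single reads. In the CKO pools it was at 2.14, 3.75 and 2.38 CPM.

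Partners of the secreted proteins and receptors also had no gene that passed in edgeR (smallest adjusted p = 0.790). Of 24 further glial secreted factors 22 were tested and 13 were above 0, of which 3 had an unadjusted p under 0.05 (Fgf1, Fgf2 and Igfbp2), and 1 of the genes below 0 did (Mdk), against 5.91% of all genes. DESeq2 called Fgf1 (adjusted p = 0.0315), where it called 0.596% of all genes. Genotypes did not overlap for 5 of the 22, Fgf1, Fgf2, Igfbp2 and Gpc4 higher and Mdk lower in CKO, against 15.8% of all genes. Fgf2 was at 1.43 ± 1.03 CPM in the WT pools and 5.64 ± 1.97 CPM in the CKO pools. Its log2 fold change was -0.25 in library 1 alone and 3.05 in library 2 alone. The growth factor Fgf1 stood at 21.8 ± 4.10 CPM in the WT pools, with 60.4 ± 21.6 CPM in CKO pools, and the growth factor binding protein gene Igfbp2 at 46.9 ± 26.7 and 119.6 ± 33.1 CPM (log2 fold changes 1.47, SE 0.35, and 1.35, SE 0.43). Of 16 lipoprotein partners of Apoe and Clu, 7 were above 0 and 0 reached an unadjusted p under 0.05 in edgeR. Sort1, a sorting receptor, stood at 71.8 ± 26.4 and 45.8 ± 6.27 CPM, and the sterol-sensing receptor gene Nr1h2 at 94.5 ± 46.8 and 55.8 ± 18.6 CPM. Genotypes did not overlap for 1 of the 16, Sort1, lower in CKO, where 8.17% of all genes were. Among 15 phagocytosis partners of Mertk and Megf10, 11 were above 0 and 1 reached an unadjusted p under 0.05 (5.91% of all genes). That gene was Pros1, a ligand of Mertk, at 50.7 ± 8.26 and 88.2 ± 10.5 CPM. Genotypes did not overlap for 3 of the 15, Pros1, Itgav and Adgrb1, all higher in CKO, where 7.67% of all genes were. The difference of Pros1 was 2.60 in library 1 and -0.01 in library 2. The related receptor gene Axl stood at 98.2 ± 5.62 and 144 ± 38.3 CPM (SD, n = 3 each).

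From the angiotensin pathway, 4 genes had enough reads to be tested, and 0 passed in edgeR (smallest adjusted p = 0.799), with 0 at an unadjusted p under 0.05. Atp6ap2, the prorenin receptor, stood at 175 ± 32.5 and 222 ± 17.6 CPM. It was higher in CKO without overlap, where 7.67% of all genes were. The converting enzyme gene Ace was at 2.67 ± 1.38 and 2.02 ± 0.574 CPM. Of 12 metalloproteinase and inhibitor genes 11 were tested, 7 were above 0 and 0 reached an unadjusted p under 0.05 in edgeR. Timp3 stood at 284 ± 59.6 and 371 ± 60.4 CPM and Mmp16 at 100.2 ± 23.1 and 157 ± 69.4 CPM (SD, n = 3 each).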

How the data were processed

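Smart-Seq2 cDNA and Nextera XT libraries were made from sorted cells, per the labels' protocols. The deposited tables hold raw read counts per gene symbol, 1 table for each of 24 runs, made by the authors with Bowtie2 and HTSeq on GRCm38, per the submitters' processing notes; versions, annotation and counting settings are not given in the sources used here. Summary lines that name no gene were left out. Among all reads of a pool, 16% to 35.3% lay outside genes, 11.2% to 21.7% were unaligned and 2.51% to 3.43% were ambiguous. The line for reads with several alignments was 0, so reads of close copies may lie on either gene.

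Counts of the 2 lanes agreed within sampling noise in each library (chi-square per degree of freedom between 0.986 and 1.01) and were summed. Between repeat libraries the same statistic ran from 70.7 in CKO pool 1 to 351 in WT pool 1, so their counts did not agree in this way. Library counts were nevertheless added up within each pool, giving 6 pools of which 3 are WT and 3 CKO. The genotype test used edgeR 4.0.16 under R 4.3.3 (filterByExpr, 21477 genes, TMM, robust quasi-likelihood F test, Benjamini-Hochberg over all genes, threshold 0.05). Libraries were compared with pool as a block. DESeq2 1.42.0 was an alternative. Levels are CPM at the TMM-adjusted library size, and 1 read is 0.0175 to 0.0265 CPM. Reads carry no molecular identifiers. Exact permutation tests were two-sided, with a prior count of 2 in the log2 CPM. The common biological coefficient of variation, as edgeR names it, was 0.725 over pools and 0.8185 over libraries within pools. It therefore includes technical spread. The fits were tested on simulated data with planted changes larger than any in the main fit of the 36 genes. That says nothing about smaller changes. Positions and lengths are from GENCODE M21 on GRCm38. All 36 genes are named, with the 2 genes of smallest p from each partner list. The genes and lists were chosen with earlier results of these data known. The alternatives were other scaling, no filter, single libraries, the replicate block and each pool left out.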

Additional observations from a re-analysis of the deposited data

How the results depend on the processing

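With every alternative run in edgeR, 0 genes and 0 of the 36 astrocyte genes were called between genotypes. DESeq2 called 124 genes and 0 of the 36. Unlike in the main fit, some of the 36 reached an unadjusted edgeR p under 0.05 in an alternative. For Cpe it was 0.0225 with the replicate block, 0.0361 without the filter and 0.00939 without WT pool 3 (edgeR adjusted p = 0.916, 0.711 and 0.576). In libraries 1 and 2 alone the unadjusted edgeR p of Cpe was 0.157 and 0.184, and without WT pool 1 it was 0.212. Between libraries DESeq2 called 3 of the 36. With CPM by the plain sum of reads, 3 of the 36 did not overlap between genotypes. The share of all genes was not computed under that scaling and was 15.8% under the TMM adjustment. Leaving out 1 pool gave 17 to 28 genes above 0 and medians of -0.03 to 0.25. All 36 kept their sign under RLE scaling and in DESeq2. Without the filter, Aldh1l1, Ppp1r3c and Tspan7 were at 0.0066, 0.0055 and 0.0088. In library 1 alone Aldh1l1, Tspan7 and F3 were at 0.19, 0.056 and -0.0036. In library 2 alone Dio2, Ppp1r3c, Slc39a12, Cldn10, Mertk, Pla2g7 and Ndrg2 were at -0.034, 0.17, -0.23, 0.011, -0.19, -0.16 and -0.060. The cause was not tested.

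Replicate numbers are shared by the genotypes, but deviations of same-numbered pools correlated at 0.0559, 0.0218 and -0.028, so they were not treated as pairs. With the replicate block 0 of the 36 were called, and Ppp1r3c, Ndrg2 and Daam2 were at 0.23, -0.015 and 0.010, while 24 were above 0 and the median was 0.17.

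Leaving out 1 pool turned the sign of 14 genes, over ranges of -0.36 to 0.34 for Aldh1l1, -0.28 to 0.67 for Dio2, -0.38 to 0.80 for Ppp1r3c, -0.074 to 0.68 for Slc39a12, -0.21 to 0.13 for Tspan7, -0.30 to 0.062 for Gpr37l1, -0.075 to 0.14 for Mertk, -0.12 to 0.30 for F3, -0.11 to 0.56 for Agt, -0.31 to 0.054 for Clu, -0.37 to 0.078 for Mfge8, -0.16 to 0.25 for Pla2g7, -0.21 to 0.19 for Ndrg2 and -0.28 to 0.16 for Daam2. The other 22 kept their sign, over -0.62 to -0.15 for Aldoc, 0.011 to 0.34 for Acsbg1, 0.32 to 0.73 for Cbs, -0.29 to -0.014 for Prdx6, 0.16 to 0.58 for Atp1b2, -0.51 to -0.13 for Cldn10, 0.24 to 0.61 for Ntsr2, 0.049 to 0.31 for Sparcl1, 0.012 to 0.31 for Scg3, 0.28 to 0.74 for Htra1, -0.48 to -0.15 for Apoe and -0.61 to -0.11 for Cst3 among others. Chrdl1 in WT pool 3 rests on 44 reads.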
